A study of Homo sapiens with 4 samples.

Results

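The genes were chosen by name from the deposited table: 9 chaperone genes that heat shock factor 1 is known to regulate and HSF1 itself, and all 10 were found among its 22361 rows. They are HSPA1A, HSPA1B, HSPA8, HSPH1, HSP90AA1, HSP90AB1, DNAJB1, HSPD1, HSPE1 and HSF1. Most of the encoded chaperones work in the cytosol, but HSPD1 and HSPE1 encode the chaperonin of the mitochondrial matrix and HSF1 encodes a transcription factor, so the set is wider than a list of cytosolic chaperones. The study sequenced RNA of Jurkat, an established T-cell acute lymphoblastic leukaemia line, in 4 libraries. In 2 of them ARIEL, a long non-coding transcript, was knocked down with a lentiviral shRNA, and the 2 control libraries carried an shRNA against GFP. Cells of both groups went through infection, at least 36 h of puromycin at 0.7 µg/ml, and collection at 72 h, so the controls share the virus and the drug. How many shRNA sequences were used, and whether replicates came from different cultures, is not in the labels. A p-value here therefore covers no more than the spread among these 4 libraries, which may be technical.

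Chaperones bind proteins that are not yet folded or have lost their fold. HSP70 proteins take hold of exposed stretches with the help of J-domain proteins, exchange factors reset them, and HSP90 with its co-chaperones completes the folding of many kinases and receptors. HSF1 is held inactive in unstressed cells, and when misfolded proteins gather it binds heat shock elements, inverted repeats of GAA and TTC units, and raises transcription of many of these genes. Dividing cells, tumour cells among them, make several of these chaperones at high level without heat.

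Short promoter stretches with heat shock elements are shown because these elements are what ties the genes to HSF1. Promoters in RefSeq (build GRCh38.p14) run from 250 bases before to 50 bases after an annotated start, and 15 starts of 9 of the genes were matched. HSF1 was not matched. Each line gives 30 bases, 5′ to 3′ on the strand of the gene, with 2-unit elements (GAANNTTC or TTCNNGAA, each its own reverse complement, overlaps counted) in capitals.
HSPA1A, chr6:31815426-31815455, plus strand: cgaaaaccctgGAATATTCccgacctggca
HSPA1B, chr6:31827622-31827651, plus strand: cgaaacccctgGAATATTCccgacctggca
HSPA8, chr11:123062170-123062199, minus strand: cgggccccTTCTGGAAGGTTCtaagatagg
DNAJB1, chr19:14518426-14518455, minus strand: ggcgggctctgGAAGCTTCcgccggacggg
HSP90AA1, chr14:102087111-102087140, minus strand: gagggttcTTCCGGAAGGTTCgggaggctt
HSP90AB1, chr6:44247823-44247852, plus strand: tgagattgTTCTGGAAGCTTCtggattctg
HSPD1, chr2:197500061-197500090, minus strand: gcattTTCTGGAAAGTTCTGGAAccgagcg

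A 2-unit element was found at a start of 7 of the 9 genes, against 16.2% of the 27305 genes with a RefSeq promoter. A 3-unit element (GAANNTTCNNGAA or TTCNNGAANNTTC, searched on both strands and made of overlapping 2-unit elements) was found in 4 of the 9, HSPA8, HSP90AA1, HSP90AB1 and HSPD1, against 0.608% of all genes. HSPH1 and HSPE1 had neither within these windows. Apart from those of HSPA1A and HSPA1B, the stretches lie inside the RefSeq span of their gene, upstream of the annotated start they belong to. Which start Jurkat cells use cannot be read from the table. The elements are matches of letters, not measured binding.

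**Figure D1:**
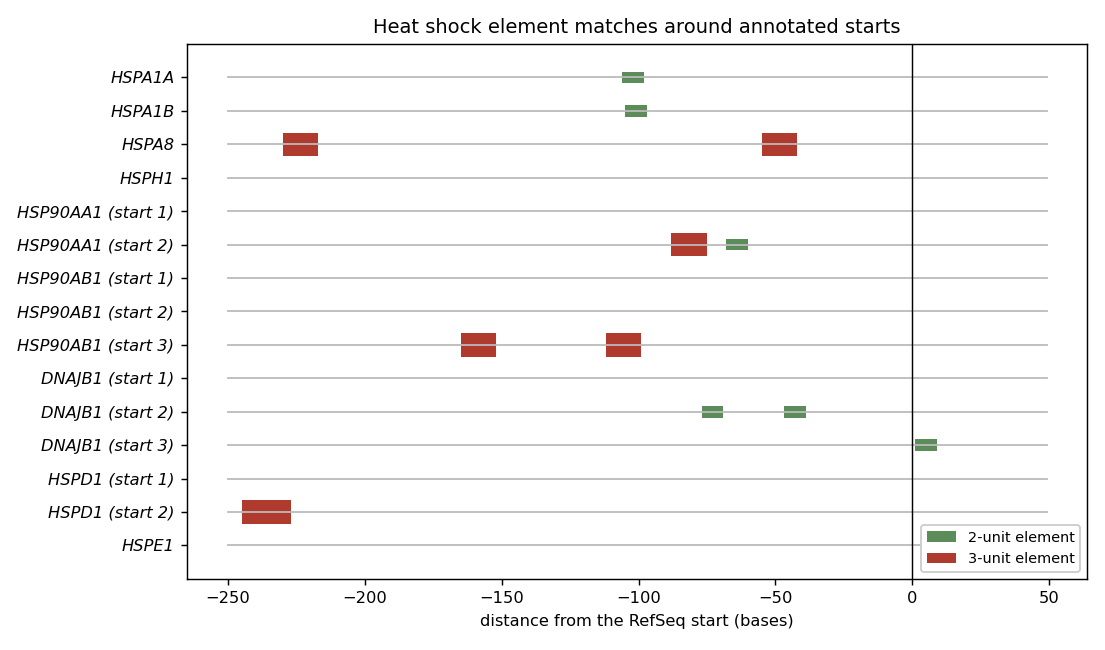
Matches of heat shock elements along 15 annotated starts of 9 genes; the horizontal axis is the distance from the RefSeq start in bases, with 0 at the start. Green blocks are 2-unit elements and red blocks 3-unit elements, which stand at 4 genes: HSPA8, HSP90AA1, HSP90AB1 and HSPD1.

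Values are rlog expression, a regularised logarithm to base 2 that draws noisy low values towards the mean of the gene, so rlog differences are smaller than the underlying change. A gene was tested where its mean rlog was at least log2 of 10, which all 10 genes passed. The table gives no counts, so the depth of each library is unknown. The row taken from background knowledge as ARIEL, XLOC_005968, stood at 10.58 and 10.55 in ARIEL knockdown libraries, against 12.02 and 11.91 in control libraries, and this link is not stated in the table. All 12 T-lineage and leukaemia markers checked lay between 11.56 and 16.77 in every library. Of these 6 were called lower and 2 higher (limma, adjusted p under 0.05), beside 22.4% lower and 22.1% higher over all genes tested. Among the lower, TRAT1 had 11.56 and 11.58 in ARIEL knockdown libraries and 12.32 and 12.30 in control libraries. CD5 had 12.28 and 12.27 against 12.60 and 12.58. The 2 higher were CD7, at 12.73 and 12.72 against 12.46 and 12.52, and CD247, at 13.80 and 13.84 against 13.66 and 13.67. CD3D, CD3E, LCK and ZAP70 were not called. The log2 of the summed level of all 12 markers was 18.16 and 18.19 in ARIEL knockdown libraries and 18.25 and 18.26 in control libraries. Of 13 markers of other cell types found, 4 were listed at 0 in every library and the highest was CD79A, at 11.23 and 11.25 in ARIEL knockdown libraries and 10.91 and 10.99 in control libraries. Of the 4 that were tested, 1 was called higher (CD79A) and 1 lower (COL1A1, at 7.20 and 7.21 against 7.36 and 7.41). The log2 of the summed level of these 13 was 11.34 and 11.36 in ARIEL knockdown libraries and 11.07 and 11.14 in control libraries. The part of either marker set in the results was not tested.

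The chaperone genes did not move as a block after ARIEL knockdown. The stress-inducible HSP70 genes HSPA1B and HSPA1A, the J-domain gene DNAJB1 and HSF1 rose, HSP90AA1 and the mitochondrial HSPE1 fell, and HSPA8, HSPH1, HSP90AB1 and HSPD1 were not called (limma, adjusted p under 0.05). This makes 6 of 10 called, 4 higher and 2 lower, beside 44.4% of the 14601 genes tested, with 22.1% higher and 22.4% lower. In a set of this size 6 calls are not far from that background and are not read as a result about the set. The median difference (ARIEL knockdown minus control) was 0.04 over the 10 genes and 0.00 over all genes. The 2 groups did not overlap in 7 of the 10, beside 70.7% of all genes tested. The called differences ran between -0.24 and 0.47 on the rlog scale, beside a median size of 0.15 for all called genes. The smallest of the 6 in size was that of HSPE1, at -0.156. The authors' log2 fold changes of the 6 ran between -0.42 (HSP90AA1) and 0.90 (HSPA1B).

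**Figure D2:**
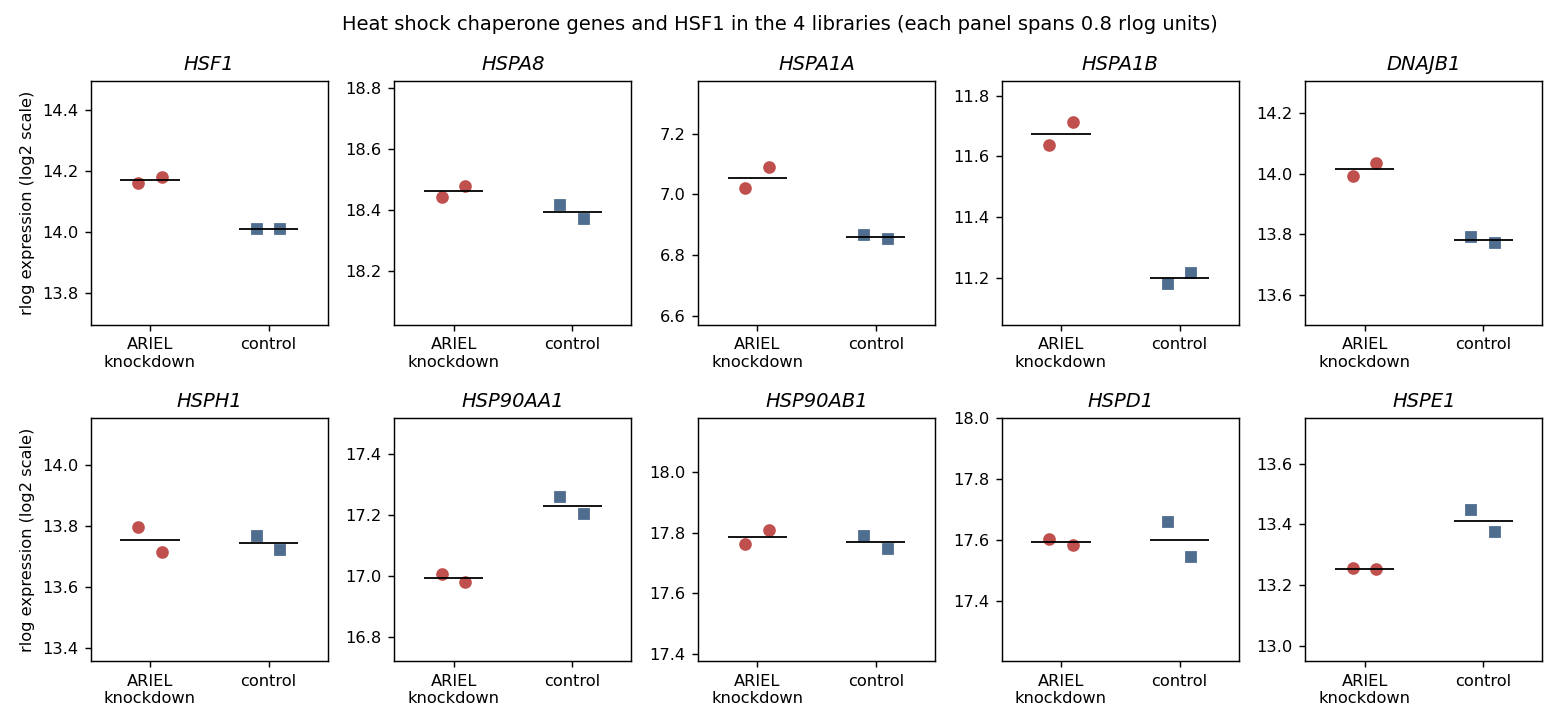
rlog expression (log2 scale) of each gene in the 4 libraries, with red circles for ARIEL knockdown, blue squares for control and a black line at each group's mean; every panel spans 0.8 units. HSPA1B shows the widest gap, 11.64 and 11.71 against 11.18 and 11.22.

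HSF1, the transcription factor that drives the heat shock response, rose slightly. Its rlog values were 14.16 and 14.18 in ARIEL knockdown libraries and 14.01 in each control library. The 2 groups were well apart, and the difference was 0.16 ± 0.03 (SE, n = 2 per group; limma, adjusted p = 4.21e-06). The authors' deposited table has HSF1 1.22-fold higher. After removal of the trend that each library shows with GC content and length of the transcript, the difference was 0.09 ± 0.02 (limma, adjusted p = 0.000538). HSF1 RNA says nothing of the protein's activity, which is set mainly by its binding partners and phosphorylation. Of 5 tested genes of the list of other heat shock factors and HSF1 regulators, 2 rose and none fell, with 3 not called, beside 22.1% higher and 22.4% lower over all genes. HSBP1, whose product binds HSF1 and is known as a negative regulator of it, stood at 13.25 and 13.23 in ARIEL knockdown libraries and 13.10 and 13.02 in control libraries, a difference of 0.19 ± 0.03 (SE). HSF2BP, which encodes a binding partner of HSF2, differed by 0.15 ± 0.05, and its call was lost without ARIEL knockdown replicate 2 (limma, adjusted p = 0.0512).

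HSPA1B, one of a pair of neighbouring genes for the stress-inducible HSP70, had the largest difference of the 10. Its rlog values were 11.64 and 11.71 in ARIEL knockdown libraries, against 11.18 and 11.22 in control libraries. Both knockdown values lay above both controls, by far more than replicates differed. The difference was 0.47 ± 0.04 (SE, n = 2 per group; limma, adjusted p = 5.92e-31), higher than that of 99.7% of all genes tested. The authors' deposited table has HSPA1B 1.86-fold higher.

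HSPA1A, the other gene of the pair, moved the same way from a much lower level. It had 7.02 and 7.09 in ARIEL knockdown libraries and 6.87 and 6.86 in control libraries. The groups did not overlap, and the difference was 0.19 ± 0.04 (SE, n = 2 per group; limma, adjusted p = 1.74e-05). The authors' deposited table has HSPA1A 1.61-fold higher, with a log2 fold change of 0.69 ± 0.20 (SE) against 0.90 ± 0.08 for HSPA1B. The transform shrinks low genes most, so the rlog differences of the pair are not on equal footing.

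Reads of the pair cannot be fully told apart. Of the 100-base windows in the longest basic transcript of HSPA1A (GENCODE 29), 69.9% also occur in HSPA1B, and 72.7% of those of HSPA1B occur in other genes, 68.8% in HSPA1A. How reads that match both were counted is not given in the sources used here. The sum of both genes, back-transformed to the linear scale and put on log2 again, was 11.70 and 11.77 in ARIEL knockdown libraries and 11.25 and 11.29 in control libraries. The summed level was thus higher in both knockdown libraries, by 0.46. HSPA1B lay above HSPA1A by 4.62 on average in ARIEL knockdown and 4.34 in control libraries. The sum therefore follows HSPA1B almost alone, and it cannot recover reads that were left out of both genes.

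HSPA8, the constitutive HSP70 that folds new proteins and uncoats clathrin vesicles, was by far the more abundant member of its family. It stood at 18.44 and 18.48 in ARIEL knockdown libraries and 18.42 and 18.37 in control libraries. The groups did not overlap, but the difference of 0.07 ± 0.04 (SE, n = 2 per group) was not called (limma, adjusted p = 0.155). It passed at 1.09-fold in the authors' deposited table (adjusted p = 0.0484) and with the GC and length trend removed (limma, adjusted p = 0.0312). HSPA1B made up 0.885% and 0.911% of the summed linear level of HSPA8, HSPA1A and HSPA1B in ARIEL knockdown libraries, against 0.660% and 0.698% in control libraries. On these values almost all of the sum over the 3 genes was HSPA8. The longest basic transcript of HSPA8 shares no 100-base window with another gene, unlike those of HSPA1A and HSPA1B. If reads that match both genes of the pair were left out, the share of the pair is too low. The shares also rest on rlog values, which shrink the change between groups.

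Among 6 tested genes for other cytosolic HSP70 and HSP110 proteins, 1 rose and 5 were not called, beside 22.1% higher and 22.4% lower over all genes. The one was HSPA6, a strictly stress-inducible HSP70 gene absent from rodents, at 7.42 and 7.49 in ARIEL knockdown libraries and 7.10 and 7.05 in control libraries. Its difference was 0.38 ± 0.04 (SE, n = 2 per group; limma, adjusted p = 8.43e-17). The authors' deposited table has HSPA6 2.34-fold higher. A share of 27.6% of its 100-base windows also occurs in HSPA7, a near copy, so its reads may be split. With the GC and length trend removed, 3 of the 6 were called higher and 1 lower, beside 28.1% higher and 23.8% lower over all genes on those values. HSPA4 (0.09 ± 0.02, SE; limma, adjusted p = 0.000960) and HSPA4L (0.07 ± 0.03, 0.0236) then passed beside HSPA6, and HSPA12B was at -0.06 ± 0.03 (0.0332). These 3 were named after their values were seen. On the deposited values they were not called, with 0.05 ± 0.03 for HSPA4, -0.01 ± 0.04 for HSPA4L and -0.003 ± 0.02 for HSPA12B. HSPA12B stood at 3.50 on average in each group, near the filter on level.

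DNAJB1, the J-domain protein that hands substrates to HSP70 and a standard target of HSF1, rose. It had 13.99 and 14.03 in ARIEL knockdown libraries and 13.79 and 13.77 in control libraries. The groups were apart by several times the gap between replicates, and the difference was 0.23 ± 0.03 (SE, n = 2 per group; limma, adjusted p = 7.61e-12). The authors' deposited table has DNAJB1 1.34-fold higher. Its transcript shares no 100-base window with another gene. The other J-domain genes went both ways, with 4 of 16 tested higher, 4 lower and 8 not called (median 0.01), beside 44.4% of all genes called. DNAJC17 (0.36 ± 0.04, SE), DNAJB6, which keeps aggregation-prone proteins soluble (0.30 ± 0.03), and DNAJB2 (0.27 ± 0.04) were higher, while DNAJC21, a ribosome assembly factor, differed by -0.24 ± 0.04.

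HSPH1, an HSP110 protein that exchanges the nucleotide of HSP70, was not called. It had 13.80 and 13.72 in ARIEL knockdown libraries and 13.77 and 13.72 in control libraries, and the groups overlapped. The difference was 0.01 ± 0.03 (SE, n = 2 per group; limma, adjusted p = 0.781). With the GC and length trend removed it was 0.07 ± 0.02 and passed (limma, adjusted p = 0.00520). Its transcript has the lowest GC content of the 10, at 40.0%.

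The list of other HSP70 exchange factors and regulators had 4 of 8 members higher and 2 lower (median 0.04), beside 22.1% higher and 22.4% lower over all genes. BAG1, an exchange factor that also binds BCL2, differed by 0.24 ± 0.03 (SE), the ubiquitin ligase gene STUB1 by 0.19 ± 0.03 (0.10 ± 0.02 once the GC and length trend was taken out) and ST13, which steadies HSP70 on its substrate, by 0.17 ± 0.03. BAG4 differed by -0.20 ± 0.04, with a wider SE of 0.06 from its own replicates. BAG3, an HSF1 target named after its values were seen, did not rise with HSPA1B and DNAJB1. Its difference was -0.10 ± 0.04 (limma, adjusted p = 0.0416), a call lost without any 1 of the 4 libraries. With the GC and length trend removed BAG3 was at -0.13 ± 0.03 (limma, adjusted p = 0.00074).

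The 2 cytosolic HSP90 genes differed in what they showed. HSP90AA1, the more stress-inducible of the pair, had 17.01 and 16.98 in ARIEL knockdown libraries, against 17.26 and 17.20 in control libraries. It was lower in both knockdown libraries, and the difference was -0.24 ± 0.04 (SE, n = 2 per group; limma, adjusted p = 1.62e-10). The authors' deposited table has HSP90AA1 1.34-fold lower. HSP90AB1, the constitutive form, had 17.76 and 17.81 in ARIEL knockdown libraries and 17.79 and 17.75 in control libraries. Its groups overlapped, and the difference of 0.02 ± 0.04 was not called (limma, adjusted p = 0.724).

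Within each library the gap between them (rlog of HSP90AA1 minus that of HSP90AB1) was -0.75 and -0.83 in ARIEL knockdown libraries and -0.53 and -0.54 in control libraries. The gaps of the 2 groups did not overlap, and a two-sided exact permutation test gave p = 0.333, the smallest that 2 libraries against 2 allow. HSP90AA1 made up 37.2% and 36.0% of their summed linear level in ARIEL knockdown libraries, against 40.9% and 40.7% in control libraries. The sum itself differed by -0.08. Their transcripts share 2.14% (HSP90AA1) and 1.59% (HSP90AB1) of 100-base windows with other genes, nearly all with the pseudogenes HSP90AA2P and HSP90AB3P.

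Of 15 HSP90 co-chaperone genes 9 rose and 2 fell (median 0.13), beside 22.1% higher and 22.4% lower among all genes tested. With the GC and length trend removed 10 were higher and 1 lower, beside 28.1% and 23.8% of all genes. TOMM34, which links HSP70 and HSP90, differed by 0.34 ± 0.04 (SE), and CDC37, which brings kinases to HSP90, by 0.21 ± 0.03. Once that trend was taken out TOMM34 was at 0.32 ± 0.03 and CDC37 at 0.15 ± 0.02. STIP1, the bridge between HSP70 and HSP90, was named after its values were seen and differed by 0.14 ± 0.03. PTGES3, the p23 protein that holds HSP90 closed, had 13.92 and 13.78 in ARIEL knockdown libraries and 14.20 and 14.08 in control libraries. The difference was -0.29 ± 0.03, but its own replicates give an SE of 0.09, since both groups varied more than genes of its level. Other genes called lower, BAG4 among them, also had a wider SE from their own replicates. TOMM34 had a narrower one, at 0.01.

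**Figure D3:**
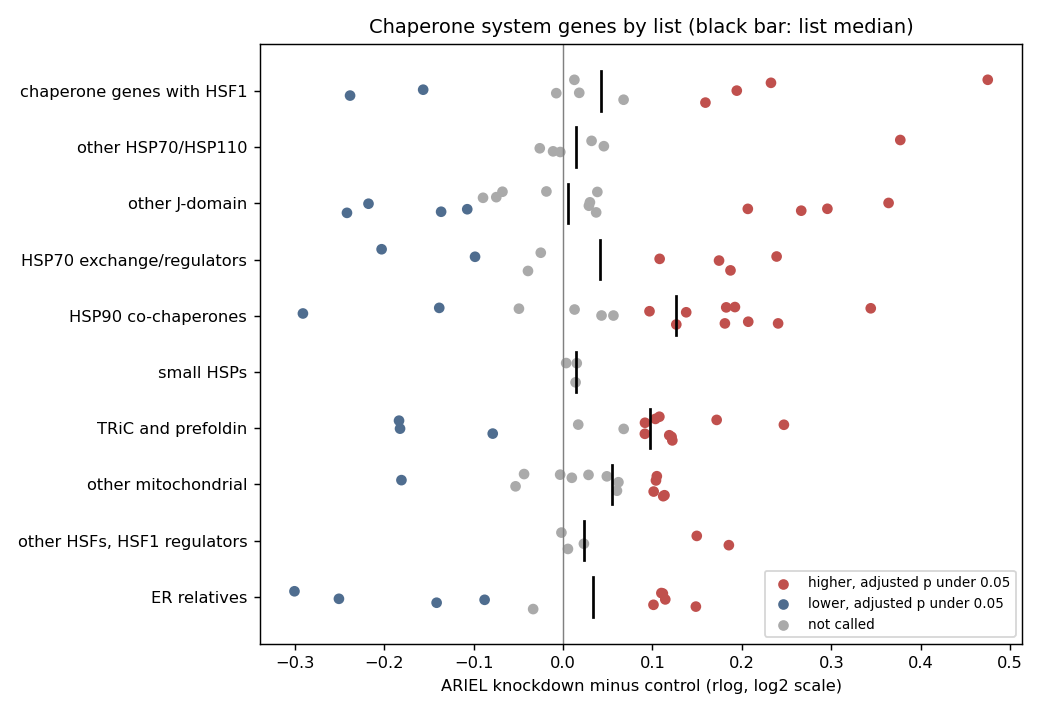
Difference of each tested gene (ARIEL knockdown minus control, rlog on the log2 scale) by list, with red for called higher, blue for called lower, grey for not called and a black bar at the list median. The medians lie between 0.01 (other J-domain genes, other HSP70 and HSP110 genes, and small heat shock proteins) and 0.13 (HSP90 co-chaperones).

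HSPD1 and HSPE1, head-to-head neighbours on chromosome 2, encode the barrel and the lid of the mitochondrial chaperonin. HSPD1 had 17.60 and 17.58 in ARIEL knockdown libraries and 17.66 and 17.54 in control libraries. Both knockdown values lay between the 2 controls, and the difference of -0.01 ± 0.04 (SE, n = 2 per group) was not called (limma, adjusted p = 0.886). HSPE1 had 13.26 and 13.25 in ARIEL knockdown libraries, against 13.45 and 13.37 in control libraries. It was lower in both, with a difference of -0.16 ± 0.03 (limma, adjusted p = 1.23e-05). The authors' deposited table has HSPE1 1.22-fold lower.

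The gap between them (rlog of HSPD1 minus that of HSPE1) was 4.35 and 4.33 in ARIEL knockdown libraries and 4.21 and 4.17 in control libraries (two-sided exact permutation p = 0.333, the smallest possible). HSPE1 is the harder one to count. In its 950-base transcript 17.0% of 100-base windows also occur in other genes, 11.0% in the readthrough gene HSPE1-MOB4, and 14.2% of its exonic bases overlap HSPD1 on the opposite strand. HSPE1-MOB4 itself had 3.10 in each ARIEL knockdown library and 3.10 and 3.07 in control libraries. The libraries were strand-specific, but whether the counting used strand is not given in the sources used here.

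Of 14 genes for other mitochondrial chaperones and quality control proteases, 5 rose, 1 fell and 8 were not called (median 0.05), a share called near the 44.4% of all genes. With the GC and length trend removed, 7 were higher and 3 lower, beside 28.1% and 23.8% of all genes. GRPEL1 and GRPEL2, exchange factors of the mitochondrial HSP70, went opposite ways, with 0.11 ± 0.03 and -0.18 ± 0.04 (SE). GRPEL2 was at -0.12 ± 0.03 with that trend removed. On the deposited values the own replicates of GRPEL1 and GRPEL2 give SE of 0.03 and 0.06. The proteases HTRA2 (0.11 ± 0.03, and 0.06 ± 0.02 with that trend removed) and AFG3L2 (0.10 ± 0.03) were higher, though the calls of GRPEL1, HTRA2 and AFG3L2 were lost without ARIEL knockdown replicate 2 (limma, adjusted p 0.139, 0.195 and 0.0738). The call of AFG3L2 was also lost without control replicate 2 (0.146).

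The TRiC chaperonin, which folds actin and tubulin in the cytosol, and prefoldin, which delivers them to it, had 9 of 14 genes higher and 3 lower (median 0.10), beside 22.1% higher and 22.4% lower over all genes. PFDN2 differed by 0.25 ± 0.04 (SE) and CCT7 by 0.17 ± 0.03. The prefoldin genes PFDN4 and VBP1 each differed by -0.18, with SE of 0.04 and 0.03. From their own replicates PFDN4 and VBP1 each have an SE of 0.07, against 0.03 for CCT7. With the GC and length trend removed PFDN4 was at -0.12 ± 0.03. Of 9 small heat shock protein genes 3 were tested and none was called, with 2 at an rlog under 4 and HSPB1 at 9.30 in ARIEL knockdown and 9.29 in control libraries on average. Relatives in the endoplasmic reticulum split, with 5 of 10 higher and 4 lower (median 0.03), beside 22.1% and 22.4% of all genes. DNAJC10, a disulfide reductase there, differed by -0.30 ± 0.03, DNAJB9 by -0.25 ± 0.05 and HSPA13 by -0.14 ± 0.03. DNAJB11 differed by 0.15 ± 0.03. From their own replicates the SE were 0.07 for DNAJC10, 0.09 for DNAJB9, 0.05 for HSPA13 and 0.03 for DNAJB11. With the GC and length trend removed 4 were higher and 2 lower: the calls of HSPA13 (limma, adjusted p = 0.138), DNAJC3 (0.374) and SIL1 (0.0920) were lost. DNAJC3 and SIL1 were named after their values were seen, at -0.09 ± 0.03 and 0.11 ± 0.04 on the deposited values. The call of DNAJC3 was also lost without either knockdown library or control replicate 1 (0.108 to 0.232), and that of SIL1 without ARIEL knockdown replicate 2 (0.266). Over all 101 genes of these lists 91 were tested, 39 rose and 16 fell, or 60.4% called, beside 44.4% of all genes, with 22.1% higher and 22.4% lower. With the GC and length trend removed 46 of 90 were higher and 15 lower, beside 28.1% and 23.8% of all genes.

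Across all genes the difference rises with the GC content of the transcript. Among 12719 genes with transcript properties, the decile medians ran between -0.08 at the lowest GC content and 0.08 at the highest. The 4 genes that rose have transcripts of 53.0% (DNAJB1), 58.7% (HSPA1B), 59.7% (HSPA1A) and 63.9% (HSF1) GC. The 2 that fell have 45.2% (HSP90AA1) and 50.2% (HSPE1), and the 4 not called 40.0% to 48.1%. Set against the median of its own decile, HSPA1B differed by 0.43, DNAJB1 by 0.20, HSPA1A by 0.14 and HSF1 by 0.08, and HSP90AA1 by -0.22 and HSPE1 by -0.17.

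With the trend removed, all 6 calls stood in the same direction. HSPA1B differed by 0.43 ± 0.03 (SE), DNAJB1 by 0.21 ± 0.02, HSPA1A by 0.15 ± 0.04, HSP90AA1 by -0.21 ± 0.03 and HSPE1 by -0.18 ± 0.02. HSPA8 and HSPH1 were then called higher as well, which makes 6 higher and 2 lower of 10, beside 51.8% of 12719 genes called on those values.

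**Figure D4:**
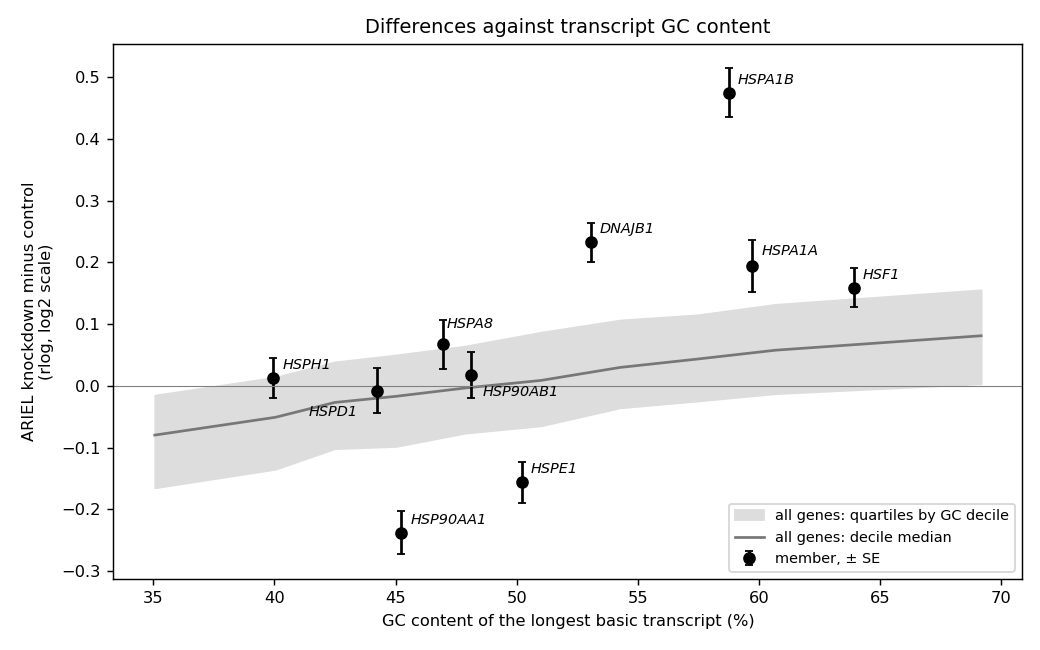
Difference between groups (ARIEL knockdown minus control, rlog on the log2 scale) against the GC content of the longest basic transcript in percent. Points are the 10 genes with SE bars, the grey line is the median of all genes by GC decile and the band their quartiles. HSPA1B, DNAJB1 and HSP90AA1 lie farthest outside the band, and HSPE1 and HSPA1A lie outside it too.

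**Figure D5:**
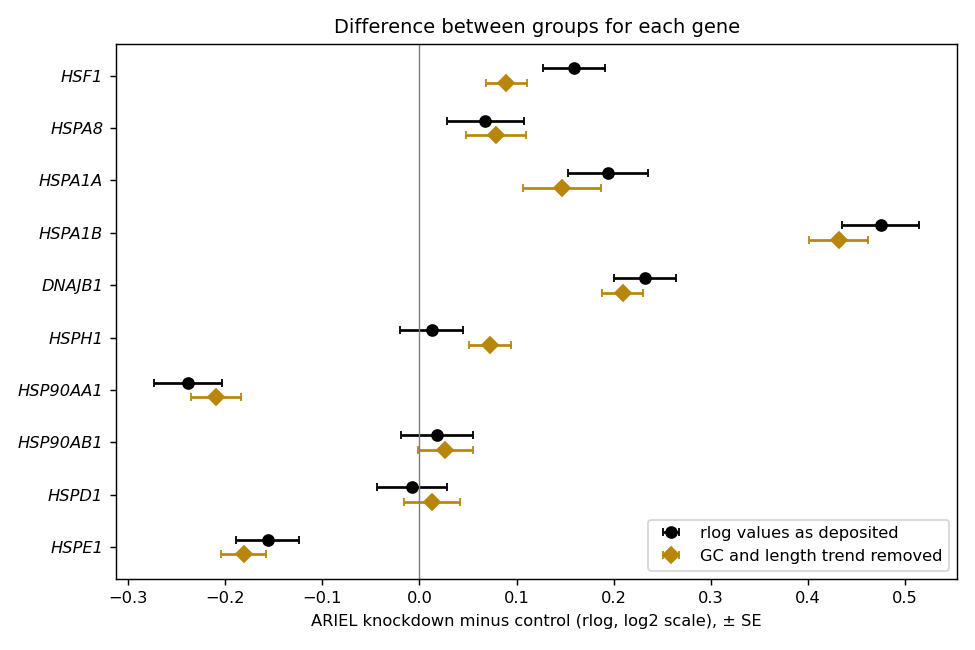
Difference between groups with SE bars for each gene, in black on the rlog values as deposited and in gold with the trend with GC content and length removed. The gold point of HSF1 lies at 0.09 beside 0.16 in black and that of HSPH1 at 0.07 beside 0.01, and none of the 6 called genes changes sign.

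Per length of transcript the levels span a wide range. On rlog minus log2 of the transcript length in kilobases, averaged over the 4 libraries, the order was HSPA8 (17.13), HSP90AB1 (16.36), HSPD1 (16.30), HSP90AA1 (15.30), HSPE1 (13.41), HSF1 (12.99), DNAJB1 (12.72), HSPH1 (11.37), HSPA1B (10.10) and HSPA1A (5.65). HSP90AB1 and HSPD1 overlapped in their ranges over libraries (16.33 to 16.39 and 16.25 to 16.36), and no other neighbours in the order did. HSPA8 ranked 7 in level without regard to length among the 14601 genes tested, HSP90AB1 ranked 19, HSPD1 27 and HSP90AA1 54. The levels of HSPA1A, HSPA1B and HSPE1 rest on transcripts that share sequence with other genes.

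The elements shown above can be set beside the direction of change. The 4 genes with a 3-unit element were HSP90AA1, which fell, and HSPA8, HSP90AB1 and HSPD1, which were not called. Of the genes that rose, HSPA1A, HSPA1B and DNAJB1 have a 2-unit element and none with 3 units in these windows, and they are the only ones of the 9 with that makeup. The stretches shown for HSPA1A and HSPA1B are nearly the same, so the pair is not 2 separate cases. The search took exact matches only. HSPE1, which fell, and HSPH1, which was not called, have no match in their own windows. This is a description of 9 genes and draws nothing about binding of HSF1.

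The genes closest to HSPA1B in pattern, by root mean square distance of values centred on each gene's mean over the 4 libraries, were SH3TC1 (0.010), TTLL12 (0.011) and GRID1 (0.013). SH3TC1 had 14.38 and 14.43 in ARIEL knockdown libraries and 13.89 and 13.95 in control libraries, a difference of 0.48 ± 0.03 (SE). TTLL12 and GRID1 each differed by 0.47, with SE of 0.03 and 0.05. Likeness over 4 libraries says only that these genes show a rise of about the same size.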

How the data were processed

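RNA of 4 Jurkat libraries (2 with ARIEL knockdown, 2 controls; groups and replicate numbers from the sample titles) was read as 100-base pairs. The tools listed in the submitters' processing notes are DESeq2 1.12.4, HTSeq 0.6.1 and STAR 2.5.2a, with genome build hg19, and no roles are stated. The authors deposited rlog values on the log2 scale, log2 fold changes with standard errors, a test score, and a p-value with an adjusted p-value, per the file headers. The table holds no counts and 0 spike-in rows, so depth is unknown. The design allowed for a count test or a pseudocount; as rlog is itself a logarithm, limma 3.58.1 (R 4.3.3, eBayes with a trend on level, checked on simulated data) was run on rlog directly. It covered 14601 genes with a mean of at least log2 of 10, with Benjamini-Hochberg adjustment at 0.05. The prior degrees of freedom were infinite, so genes of a level share 1 spread, with a median SE of 0.04. Transcript GC, length and shared windows come from the longest basic transcript of GENCODE 29, matched by gene ID for 87.1% of genes tested; trends were removed with splines of 5 degrees of freedom. Members, lists and tests were chosen with earlier results of these data known. Named genes were all 10 members, up to 4 called genes of each other list by smallest adjusted p, and the 3 nearest in pattern to the member with the largest difference. One gene that this rule names is not reported here. Coordinates are given only for RefSeq promoters, in their own build. Python 3.11.15 was used for the rest.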

Additional observations from a re-analysis of the deposited data

How the results depend on the processing

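Under 13 alternatives the 6 calls among the 10 genes kept their direction, and all passed in every one but the fit with each gene's own variance. That fit shares no spread between genes and called 0 genes, with 0 higher and 0 lower among the 10 and among the other chaperone lists; at an unadjusted p under 0.05 it had 4 higher and 1 lower of the 10, 27 higher and 3 lower in the lists, and 4561 genes in all. The other alternatives were 2 filters on level, no variance trend, 2 scalings, the replicate block, the GC and length trend removed, each library left out, and the authors' test. Leaving out each library gave 4 higher and 2 lower of the 10 every time, 24 to 38 higher and 12 to 16 lower in the lists, and 4225 to 6188 genes in all, the lowest counts of list genes higher (24) and of all genes (4225) without ARIEL knockdown replicate 2. Where an arm keeps 1 library, that library is assumed to vary like the other group.

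Replicate numbers are not said to pair libraries, and the deviations of same-numbered libraries correlated at 0.20 over genes. With the replicate block 4 of the 10 were higher and 2 lower, 42 list genes higher and 17 lower, and 7426 genes were called.

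Of the 4 genes not called, 3 changed sign in some alternative. Leaving out each library put HSPH1 between -0.028 and 0.053 (below 0 without ARIEL knockdown replicate 1 and at -0.010 without control replicate 2), HSP90AB1 between -0.0048 and 0.041 (also -0.0038 without control replicate 2) and HSPD1 between -0.065 and 0.050 (also 0.0025 without ARIEL knockdown replicate 2). HSPD1 was at 0.013 with the GC and length trend removed and was called lower after quantile normalization (-0.06; limma, adjusted p = 0.0210). Among genes named after their values were seen, HSPA4L was at 0.068 with the GC and length trend removed, 0.0044 after quantile normalization and -0.042 to 0.020 with a library left out. HSPA12B was at 0.0026 after median centring, 0.0015 after quantile normalization and -0.020 to 0.013 with a library left out. BAG3 lost its call after median centring (adjusted p = 0.0572) and quantile normalization (0.0509). The cause of these changes was not tested. With 2 libraries per group and unknown depth, differences near 0.05 on the rlog scale are at the limit of what these values can show.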
